A study of Mus musculus with 2 samples.

Results

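The genes that copy nuclear DNA were examined in spleen tissue of adult C57BL/6J mice, an inbred laboratory strain. The set holds 42 genes, chosen by name for their part in origin licensing, the replication fork and nucleotide supply by a rule that uses no measured value, and all 42 were found among the 43346 genes of the tables. Poly(A) RNA from 2 biological replicates was sequenced. Both came from littermates of mixed sex aged 8 weeks, had no recorded genotype change or treatment, and are named here library 1 and library 2. The labels trace both libraries to the same donor record and do not tie single littermates to a library, so the spread between them may be technical. With a single group, no condition was compared, and ratios below are library 1 over library 2.

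DNA replication starts when the origin recognition complex, with Cdc6 and Cdt1, loads the MCM helicase onto DNA. Cdc45 and the GINS complex then join the helicase and activate it, polymerase alpha with primase lays down primers, and polymerases delta and epsilon extend them behind the sliding clamp PCNA, which the RFC complex loads. RPA coats exposed single strands, FEN1 and DNA ligase I join Okazaki fragments, and ribonucleotide reductase, thymidylate synthase and thymidine kinase supply precursors. Many of these genes are known targets of E2F transcription factors at entry into S phase. In adult mouse spleen, dividing cells include erythroid and granulocyte precursors and activated lymphocytes.

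Promoter letters were therefore set out beside the levels. RefSeq promoters on GRCm38.p6, running from 250 bases before to 50 bases after each annotated start, were at hand for 34 of the 42 genes, as 41 promoters. The search used 4 E2F-type motifs, TTTGGCGC, TTTCCCGC, TTTGGCGG and TTTCGCGC, on both strands and with overlaps between them allowed. At least 1 of them occurred in 16 of the 41 promoters (39.0%), against 777 of 32851 promoters of all genes (2.37%). The CCAAT box, searched as CCAAT, occurred in 24 of the 41 (58.5%), against 37.4% of all promoters. The CHR, a G2/M cell cycle element searched as TTTGAA, occurred in 4 (9.76%), against 17.9% of all promoters. A match describes letters and is not evidence of binding.

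The promoters of 5 genes are shown because each held an E2F-type motif and belonged either to the gene of highest level in its functional group or to a gene past the 1.5-fold limit used below. Capitals mark the E2F-type motifs, some of which lie on the opposite strand, and each sequence runs 5′ to 3′ on the gene's strand.
Orc3, chr4:34614893-34615192, minus strand: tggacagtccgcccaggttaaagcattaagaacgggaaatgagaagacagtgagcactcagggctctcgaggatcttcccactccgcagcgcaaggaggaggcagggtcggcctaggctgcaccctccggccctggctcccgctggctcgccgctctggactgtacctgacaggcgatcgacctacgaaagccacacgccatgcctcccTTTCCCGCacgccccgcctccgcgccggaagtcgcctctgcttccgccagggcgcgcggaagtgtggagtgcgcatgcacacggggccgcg
Cdt1, chr8:122567765-122568064, plus strand: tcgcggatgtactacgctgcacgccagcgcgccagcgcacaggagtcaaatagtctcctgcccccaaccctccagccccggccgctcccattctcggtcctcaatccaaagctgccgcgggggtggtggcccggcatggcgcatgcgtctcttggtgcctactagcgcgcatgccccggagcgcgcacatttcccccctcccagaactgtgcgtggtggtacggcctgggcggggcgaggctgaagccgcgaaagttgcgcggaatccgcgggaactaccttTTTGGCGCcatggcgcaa
Mcm7, chr5:138171834-138172133, minus strand: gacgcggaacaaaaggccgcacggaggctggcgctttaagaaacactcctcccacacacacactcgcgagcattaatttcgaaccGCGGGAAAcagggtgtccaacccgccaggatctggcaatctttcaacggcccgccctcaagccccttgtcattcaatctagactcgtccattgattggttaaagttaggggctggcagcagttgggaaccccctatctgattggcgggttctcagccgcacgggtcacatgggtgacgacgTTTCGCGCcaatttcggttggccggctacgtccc
Pold1, chr7:44548766-44549065, minus strand: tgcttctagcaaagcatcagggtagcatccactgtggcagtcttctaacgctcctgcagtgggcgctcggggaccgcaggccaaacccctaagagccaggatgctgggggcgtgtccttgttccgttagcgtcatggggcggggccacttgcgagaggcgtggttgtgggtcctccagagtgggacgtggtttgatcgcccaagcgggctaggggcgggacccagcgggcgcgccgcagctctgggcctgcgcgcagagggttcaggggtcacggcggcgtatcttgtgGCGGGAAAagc
Rpa1, chr11:75348334-75348633, minus strand: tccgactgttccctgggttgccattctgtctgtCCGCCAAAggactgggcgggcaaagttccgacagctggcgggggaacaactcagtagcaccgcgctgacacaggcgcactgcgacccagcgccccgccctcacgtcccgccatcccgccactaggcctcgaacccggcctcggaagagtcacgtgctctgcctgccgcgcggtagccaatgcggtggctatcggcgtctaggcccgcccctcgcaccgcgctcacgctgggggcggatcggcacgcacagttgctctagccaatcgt

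The MCM genes held the motif most often in number, in 4 of the 5 subunit genes with a promoter at hand, namely Mcm3, Mcm5, Mcm6 and Mcm7. Shorter stretches around the motifs of the other 3 are given to show how they lie, again with the motifs in capitals.
Mcm3, chr1:20820263-20820313, minus strand: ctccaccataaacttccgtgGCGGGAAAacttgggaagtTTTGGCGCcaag
Mcm5, chr8:75109336-75109387, plus strand: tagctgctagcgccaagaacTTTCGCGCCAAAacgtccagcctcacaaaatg
Mcm6, chr1:128359725-128359835, minus strand: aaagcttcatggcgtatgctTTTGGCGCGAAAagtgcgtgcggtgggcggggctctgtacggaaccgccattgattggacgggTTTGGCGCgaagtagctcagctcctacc
In Mcm5 and in Mcm6 a pair of motifs on opposite strands overlapped to form a single run of 12 bases. The run was TTTCGCGCCAAA in Mcm5 and TTTGGCGCGAAA in Mcm6. The 4 motifs can form 6 runs of this kind, and any of them occurred in 2 of the 41 promoters and in 7 of the 32851 promoters of all genes. Mcm3 carried its motifs 19 and 38 bases past the start. In Cdt1 the motif began 32 bases past the start, in Orc3 41 bases before it, and in Rpa1 217 bases before it. Of the 23 matches in these genes, 15 began no more than 60 bases before the annotated start.

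By function, the motif was in 3 of 6 origin recognition genes (Orc1, Orc3 and Orc4), both licensing factors with a promoter (Cdc6 and Cdt1), and 3 of 4 polymerase genes (Pola1, Pola2 and Pold1). It was in none of the 4 nucleotide supply genes. The 16 genes with the motif had a median level of 12.2 TPM, and the 18 with a promoter but without it had a median of 9.42 TPM. Their median log2 ratios between the libraries were 0.12 and 0.15. The values of both sets are given as a description without a test.

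**Figure D1:**
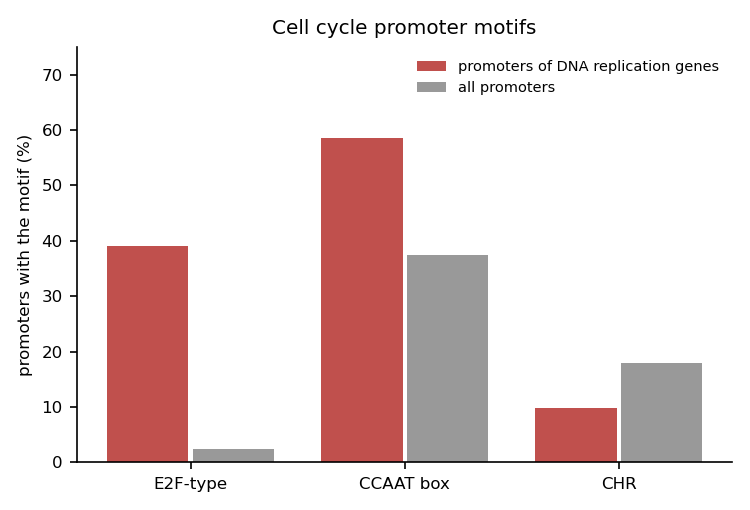
Share of promoters that held each motif, in percent, for the 41 promoters of DNA replication genes (red) and for all 32851 promoters (grey). The E2F-type bar stands at 39.0% for replication genes and 2.37% for all genes, the CCAAT box at 58.5% and 37.4%, and the CHR at 9.76% and 17.9%.

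Expected counts assigned to genes totalled 49686344 in library 1 and 51393345 in library 2. Levels are in TPM, a scale corrected for transcript length and brought to a fixed total in each library, and are given for each library or as the mean ± SD of both (n = 2). B cell markers such as Cd79a, with 1130.25 TPM in library 1 and 863.20 in library 2, were abundant. The samples also held transcripts of 10 pancreatic acinar genes, which summed to 81844 and 66674 TPM. Ctrb1 alone had 36978.6 and 21058.7 TPM of these sums, and by scaled counts the other 9 acinar genes were lower in library 1. The 4 haemoglobin genes summed to 193798 and 303446 TPM. Because TPM adds to a fixed total, these abundant transcripts lower the TPM of every other gene. In whole tissue, fewer cells of a type and less RNA per cell cannot be told apart.

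Transcripts of 39 of the 42 replication genes were detected, meaning 1 TPM or more in both libraries. The share detected was 28.8% over all genes and 53.9% over protein-coding genes. The median level of the 42 genes was 10.1 TPM in library 1 and 8.46 TPM in library 2, with a mean of 9.29 ± 1.17 TPM (SD, n = 2), and their sums were 895 and 720 TPM. Detected protein-coding genes had a median of 11.6 TPM. Of the replication genes, 18 lay above that median, 8 above the upper quartile of 32.4 TPM and 14 below the lower quartile of 4.33 TPM. The highest mean, of Pold1, was 323-fold the lowest, of Pola1.

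**Figure D2:**
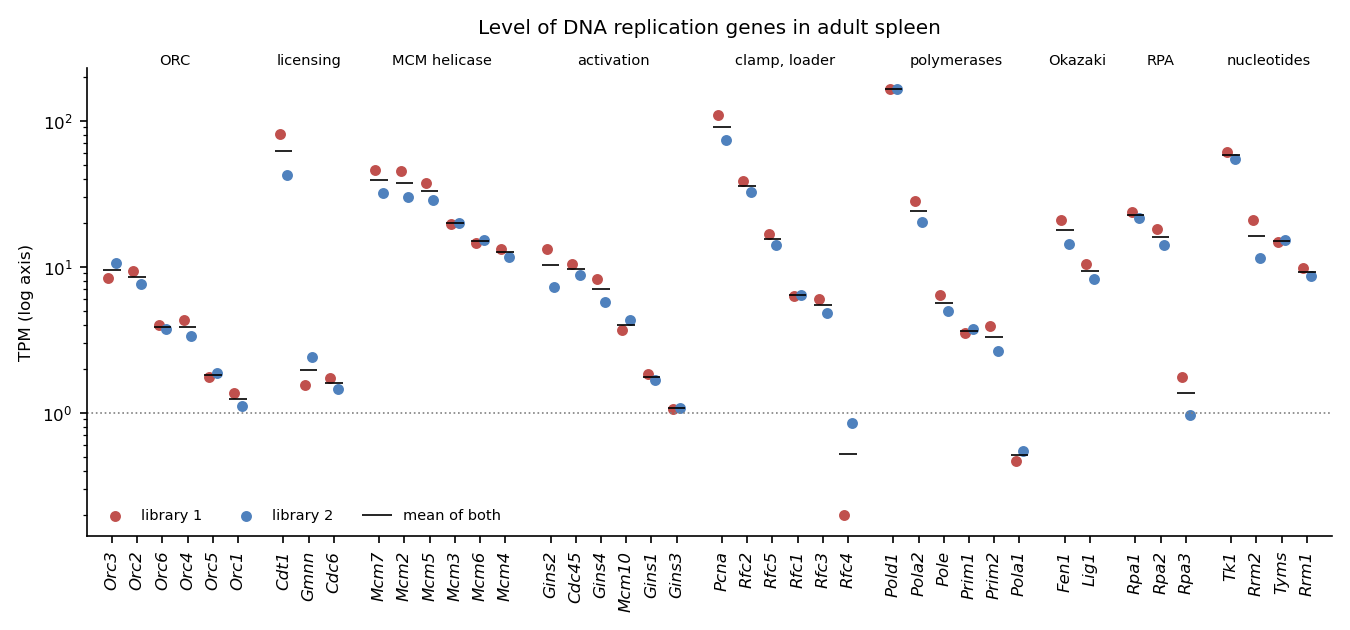
TPM of each of the 42 replication genes on a log axis, grouped by function and ordered by mean within each group, in library 1 (red, left of each pair) and library 2 (blue). Short lines mark the mean of both and the dotted line marks 1 TPM. Pold1 and Pcna stand highest, and Rfc4, Pola1 and Rpa3 have a point below 1 TPM.

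In the origin recognition complex, the ATP-dependent machine that marks origins, Orc2 and Orc3 were highest and Orc1 lowest when all transcripts were summed. Orc2 had 9.37 TPM in library 1 and 7.64 TPM in library 2, and Orc3 had 8.35 and 10.54 TPM. Orc6 had 3.97 and 3.77 TPM, and Orc4 had 4.32 and 3.38 TPM. Orc5 had 1.77 and 1.87 TPM, and Orc1, the subunit known in human cells to be degraded during S phase, had 1.36 and 1.11 TPM. By summed levels, the order of Orc2 and Orc3 differed between the libraries, whereas Orc1 was lowest in both. By protein-coding transcripts alone, Orc3 had 2.12 TPM in library 1 and 2.08 TPM in library 2, below Orc2, Orc6 and Orc4 in both. Coding Orc4 models of 383 and 324 bases had 1.93 and 0.19 TPM in library 1, from 15.82 and 1 counts. In library 2 they had 0.28 and 0.90 TPM, from 2.76 and 6 counts. The coding Orc4 transcript of 4066 bases had 0.64 TPM in library 1 and 0.71 in library 2. The coding Orc1 transcript of 3014 bases was higher, at 1.02 and 1.11 TPM. The coding Orc3 transcript of 2300 bases had 0.57 and 1.35 TPM. Which subunit was lowest therefore depended on the models counted. The ratio of Orc2 to Orc1 was 6.89 in library 1 and 6.88 in library 2. A coding Orc2 model of 370 bases held 57.8% and 57.1% of the Orc2 level, from 40.96 and 39.73 counts. The coding Orc2 transcript of 3561 bases took 637.04 and 571.27 counts but had 3.95 and 3.22 TPM. By that transcript Orc2 was not above Orc6. The ratio therefore rests in large part on the short model. Exons of Orc2 overlap those of Nif3l1, on the opposite strand, over 1150 bases. Nif3l1 had 571 and 549 counts, against 678 and 612 for Orc2. None of the 6 genes was higher in library 1 by the exact binomial test described below and 1, Orc3, was lower, beside 26.6% higher and 24.1% lower among all genes tested.

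Cdt1, the loading factor for the MCM helicase, stood far above its partner and its inhibitor. Cdt1, on GRCm38 chromosome 8 from 122568015 to 122573554, had 81.83 TPM in library 1 and 42.52 TPM in library 2, or 62.2 ± 27.8 TPM (SD, n = 2). Cdc6, the ATPase that acts with it at origins, had 1.74 and 1.45 TPM, and Gmnn, which encodes the Cdt1 inhibitor geminin, had 1.54 and 2.40 TPM. Cdt1 was the highest of the 3 in both libraries, 47.0 times Cdc6 in library 1 and 29.3 times in library 2, and 53.1 and 17.7 times Gmnn. Gmnn rested on 55 counts in library 1 and 97 in library 2, and Cdt1 on 7786 and 4467.

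The 6 subunits of the MCM helicase ring, which are present in equal number in the complex, lay within 3.45-fold of each other in library 1 and 2.73-fold in library 2. With all transcripts summed, the order was the same in both libraries: Mcm7, Mcm2, Mcm5, Mcm3, Mcm6 and Mcm4. By coding transcripts alone the order was Mcm2, Mcm7, Mcm5, Mcm3, Mcm4 and Mcm6 in library 1, and Mcm2, Mcm5, Mcm7, Mcm6, Mcm3 and Mcm4 in library 2. Mcm7, on chromosome 5, had 45.94 TPM in library 1 and 32.08 TPM in library 2. Mcm2 had 45.13 and 29.89 TPM, and Mcm5 had 37.57 and 28.48 TPM. The ranges of those 3 genes overlapped. Mcm3 had 19.59 and 20.03 TPM, Mcm6 14.64 and 15.28 TPM, and Mcm4 13.31 and 11.76 TPM. The lower 3 subunits stayed below the lower library of the upper 3. Mcm7 shares 8.71% of its possible 76-base reads with the processed pseudogene Gm5487, so some uncertainty attaches to its count.

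The 6 genes that activate the loaded helicase had a median of 5.98 TPM in library 1 and 5.05 TPM in library 2, below the medians of 28.6 and 24.3 TPM of the MCM genes. Cdc45 had 10.43 TPM in library 1 and 8.75 TPM in library 2, and Mcm10, an initiation factor that binds the activated helicase, had 3.69 and 4.35 TPM. The GINS subunits, which also form a complex of equal parts, spread more widely than the MCM subunits. Gins2 had 13.15 and 7.31 TPM, Gins4 had 8.26 and 5.75 TPM, Gins1 had 1.85 and 1.67 TPM and Gins3 had 1.06 and 1.08 TPM. Gins2 over Gins3 came to 12.4 in library 1 and 6.77 in library 2, but most of the Gins2 level lay on a short non-coding model described below.

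Pcna, which encodes the sliding clamp and lies on chromosome 2 from 132249162 to 132253314, had 109.18 TPM in library 1 and 73.54 TPM in library 2 (91.4 ± 25.2, SD, n = 2), and was among the 2 genes of the set above the 90th percentile of detected protein-coding genes. Its reads can be shared with the pseudogene Pcna-ps2 over 13.6% of its 76-base stretches, and that pseudogene was assigned 9.23 and 37.66 counts, against 6820.77 and 5083.34 for Pcna. In the clamp loader the small subunit Rfc2 was highest, at 38.83 and 32.55 TPM. Its exons overlap those of Lat2, on the opposite strand, over 952 bases, and Lat2 had 2243 counts in library 1 and 2390 in library 2, against 2440 and 2268 for Rfc2. Rfc5 had 16.88 and 14.19 TPM, the large subunit Rfc1 had 6.30 and 6.43 TPM, and Rfc3 had 6.05 and 4.83 TPM. Rfc4, a core subunit of the same loader, was at 0.20 and 0.85 TPM, from 10 and 20 counts. The ratio of Rfc2 to Rfc4 was 194 in library 1 and 38.3 in library 2, but 70.1 and 30.0 by the authors' posterior mean TPM and 194 and 142 by coding transcripts. At this depth the ratio is only roughly known. Rfc4 lies on chromosome 16 and overlaps the exons of Eif4a2, on the opposite strand, over 194 bases. Eif4a2 had 44.68 and 55.20 TPM. No source at hand states how reads of overlapping genes were assigned or whether strand was used. The part of these overlaps in the Rfc2, Rfc5 and Rfc4 values was not tested.

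Among polymerases, Pold1, the catalytic subunit of polymerase delta, on chromosome 7 from 44532746 to 44548849, was highest of all 42 genes, with 164.83 TPM in library 1 and 164.18 in library 2, and the libraries nearly coincided. Pole, the catalytic subunit of polymerase epsilon, had 6.36 and 4.99 TPM. Within the polymerase alpha and primase complex, the accessory subunit Pola2 had 28.03 and 20.29 TPM, and the catalytic subunit Pola1 had 0.47 and 0.55 TPM. The primase subunits Prim1 and Prim2 lay between them, Prim1 at 3.51 and 3.77 TPM and Prim2 at 3.96 and 2.65 TPM. The ratio of Pola2 to Pola1 was 59.6 in library 1 and 36.9 in library 2.

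Of the genes that finish Okazaki fragments, the flap nuclease Fen1 had 21.07 TPM in library 1 and 14.39 TPM in library 2, and the ligase Lig1 had 10.39 and 8.26 TPM. In RPA, the trimer that coats single strands, Rpa1 had 23.78 and 21.61 TPM and Rpa2 had 18.01 and 14.00 TPM. Rpa3, the smallest subunit, had 1.77 and 0.96 TPM from 39 and 24 counts, and shares 7.26% of its 76-base stretches with the pseudogene Gm6195, which had no counts. Rpa1 and Rpa2 were above Rpa3 in both libraries, and the ratio of Rpa1 to Rpa3 was 13.4 in library 1 and 22.5 in library 2, or 8.68 and 13.3 by coding transcripts.

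For nucleotide supply, thymidine kinase gene Tk1 was highest, with 61.24 TPM in library 1 and 54.88 in library 2. Thymidylate synthase, Tyms, had 14.69 and 15.35 TPM. The large subunit of ribonucleotide reductase, Rrm1, had 9.83 and 8.66 TPM, and its S-phase small subunit, Rrm2, on chromosome 12 from 24708241 to 24714146, had 20.83 and 11.46 TPM (16.1 ± 6.63, SD, n = 2). Rrm2 over Rrm1 was 2.12 in library 1 and 1.32 in library 2. In the order of all 42 genes by mean TPM, the libraries' ranges overlapped for 32 of the 41 pairs of neighbours and not for 9, among them Pold1 over Pcna, Tk1 over Mcm7 and Mcm5 over Pola2.

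A gene's level sums all its annotated transcripts, which include models that do not encode the protein. Protein-coding transcripts, typed by GENCODE M21, held a median of 96.9% of the level in library 1 and 92.3% in library 2. For 21 genes they held 90% or more in both libraries. For 6 genes, Gins2, Lig1, Mcm10, Orc3, Pold1 and Tyms, they held under 50% in both. Models that GENCODE M21 does not list were counted as non-coding.

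Pold1 showed how this bears on rank. Its full-length coding transcript of 3454 bases took 6773.77 of 9682 expected counts in library 1 and 6614.99 of 10007 in library 2. On the length-corrected scale the same transcript had 43.41 and 38.50 TPM, which is 26.3% and 23.5% of the gene. Most of the rest lay on short models such as Pold1-203, a retained intron of 708 bases with 39.51 and 25.48 TPM. By coding transcripts alone Pold1 stood below Pcna and Cdt1.

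By TPM, Gins2, Lig1, Mcm10, Orc3 and Tyms were led by non-coding models in both libraries. Gins2-204, a retained intron of 511 bases, held 88.2% of the Gins2 level in library 1 and 85.1% in library 2, and the coding transcript of 3900 bases had 1.06 and 0.84 TPM. With coding transcripts only, the ratio of Gins2 to Gins3 was 1.00 in library 1 and 0.778 in library 2. Exons of Gins2 overlap those of Gse1, on the opposite strand, over 2758 bases, and Gse1 had 11520 and 10367 counts, so the Gins2 counts are uncertain. Lig1-207, a processed transcript of 2968 bases, held 67.4% and 58.0% of the Lig1 level. Mcm10-204, a retained intron, held 55.7% and 62.5%, and Tyms-202, another retained intron, held 41.4% and 51.1%. The coding Tyms transcript had 2.35 and 1.23 TPM.

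**Figure D3:**
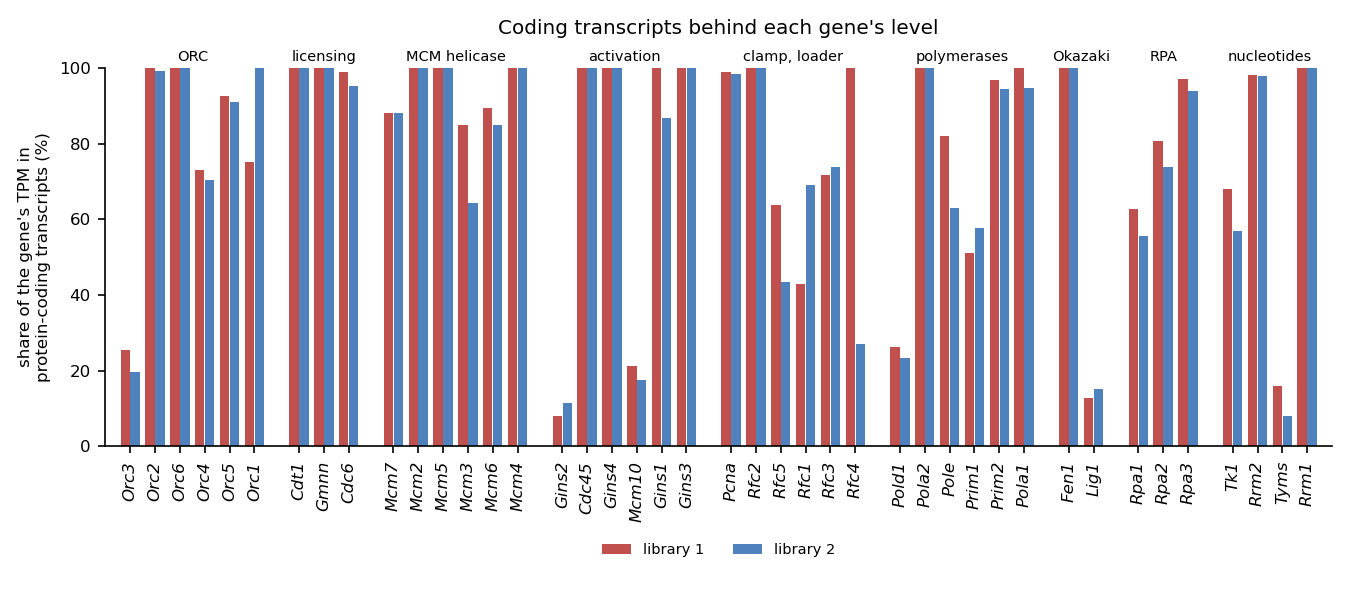
Share of each gene's TPM, in percent, held by its protein-coding transcripts in library 1 (red, left of each pair) and library 2 (blue). Gins2 at 8.06% and 11.5%, Lig1 at 12.8% and 15.3%, and Pold1 at 26.3% and 23.5% are among the 6 genes below 50% in both libraries.

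Between the libraries, most replication genes differed by less than 1.5-fold, and those beyond counting error were more often higher in library 1. An exact two-sided binomial test of each gene's counts, with Benjamini-Hochberg adjustment over all 17547 genes tested and a threshold of 0.05, put 20 of the 42 higher in library 1 and 4 lower, and 18 did not pass. Over all genes tested the shares were 26.6% higher and 24.1% lower, and over detected genes 33.5% and 27.1%. For the replication genes they were 47.6% and 9.52%. In either direction the share was 57.1%, close to 50.7% over all genes tested and 60.6% over detected genes. The median log2 ratio of the 42 genes was 0.15, with 28 above 0, against -0.005 over all genes tested and 0.016 over detected genes. The test covers counting error between these libraries only, with no estimate of the spread between animals, and 38 of the 42 genes had 100 or more counts in both libraries.

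Past 1.5-fold there were 3 genes higher in library 1, Cdt1, Rrm2 and Rpa3, and 2 lower, Gmnn and Rfc4. That is 7.14% and 4.76% of the 42 genes, beside 8.04% and 10.5% of all genes tested and 4.66% and 4.21% of detected genes. Cdt1 was 1.77-fold higher in library 1, with a 95% counting interval of 1.70 to 1.83 and an adjusted p of 2.3e-207 (exact binomial test). Rrm2, the S-phase subunit of ribonucleotide reductase, had 1941 counts in library 1 and 1177 in library 2, a ratio of 1.67 (1.55 to 1.80, adjusted p = 8.3e-44, exact binomial test). Gmnn fell to 0.574 of its library 2 value (0.405 to 0.808, adjusted p = 2.4e-03, exact binomial test). Rpa3 had a ratio of 1.65 (0.965 to 2.86) and Rfc4 of 0.507 (0.212 to 1.13), with adjusted p of 0.10 and 0.16 in the exact binomial test, so neither differed beyond counting error. None of the 42 genes was past 2-fold in either direction.

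Among the MCM genes, log2 ratios of those higher in library 1 were 0.47 for Mcm2, 0.41 for Mcm7, 0.28 for Mcm5 and 0.14 for Mcm3, the last from 2339 counts in library 1 and 2151 in library 2. Mcm3 was slightly lower in library 1 by deposited TPM, at a log2 ratio of -0.03. Mcm6 was lower in library 1 at -0.13 (adjusted p = 0.011, exact binomial test), and Mcm4 at 0.06 did not pass. By these values the ring subunits did not all have a ratio of the same sign. Mcm6 was at -0.06 by deposited TPM, and its call did not hold under every scaling and filter. Pcna was higher in library 1 at 0.44 and Pcna over Mcm2 was 2.42 in library 1 and 2.46 in library 2.

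Of the rest of the fork, log2 ratios of genes higher in library 1 were 0.40 for Fen1, 0.31 for Lig1, 0.35 for Rpa2, 0.34 for Pola2, 0.45 for Prim2, 0.20 for Pole and 0.10 for Rpa1. Gins2 at 0.43, Gins4 at 0.39 and Cdc45 at 0.19 were also higher, as were Rfc5 at 0.22, Rfc2 at 0.12 and Tk1 at 0.14. The clamp loader split, since its large subunit Rfc1 was lower in library 1 at -0.19. Orc3 was lower at -0.47, with 392 counts in library 1 and 552 in library 2. Pold1, at -0.03 with 9682 and 10007 counts, did not pass. Calls for Mcm6, Cdc45 and Rpa1 were lost under other scalings or filters, with adjusted p between 0.054 and 0.14 (exact binomial test).

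**Figure D4:**
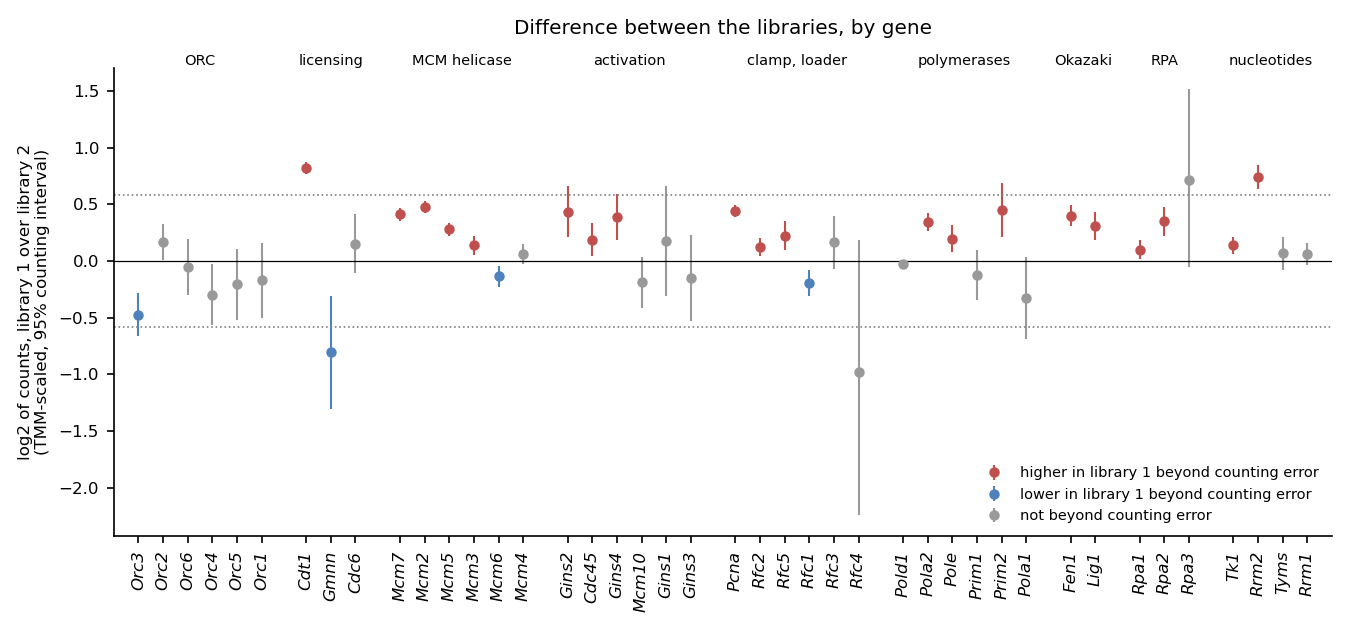
Log2 of the scaled counts in library 1 over library 2 for each replication gene, with bars for the 95% counting interval. Red points were higher and blue points lower in library 1 beyond counting error, grey points did not pass, and dotted lines mark 1.5-fold. Red points (20) outnumber blue ones (4), and the widest bars belong to Rfc4 and Rpa3.

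The ratio moved with level and base composition. Of the 10 genes with a mean of 20 TPM or more, 9 had a log2 ratio above 0, and of the 14 under 5 TPM, 4 did. Across the 42 genes, Spearman's rho was 0.48 between mean level and ratio and 0.43 between GC content of the leading transcript and ratio, beside 0.22 over 12500 and 0.36 over 12388 detected genes. GC content and level were also related, with rho of 0.60 in the 42 genes and 0.36 in the detected genes. These are correlations across genes that share the same libraries and are given without a test. After the trend with GC content and length was removed, the median log2 ratio of the 42 genes was 0.18. Whether level or base composition sets the ratio was not tested.

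Among 108 other genes of the replication and cell cycle pathways, 42 were higher in library 1 and 16 lower, with a median log2 ratio of 0.07. Beside these counts, and those of the lists that follow, 26.6% of all genes tested were higher and 24.1% lower, and 33.5% and 27.1% of detected genes. The regulators of helicase loading and firing had 6 of 10 higher and 0 lower. Dbf4, the activating subunit of the Cdc7 kinase, had 5.37 TPM in library 1 and 2.71 TPM in library 2, and Donson, a factor that brings GINS to the helicase, had 18.10 and 10.13 TPM. Recql4 and Mcm9 were also past 1.5-fold. Of 21 fork accessory and polymerase genes, 9 were higher and 3 lower. Pold4, a small subunit of polymerase delta, was the highest of them at 263.36 and 196.38 TPM. The 1.5-fold limit applies to scaled counts, here and below, and ratios of TPM can differ from it. Dscc1, part of an alternative clamp loader, was the only one past that limit, at 2.18 and 0.87 TPM. Pold2, at 188.25 and 69.93 TPM, had a ratio of 1.47 by scaled counts.

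Of 23 genes of E2F and G1/S control, 12 were higher in library 1 and 3 lower. The transcription factor E2f1 had 19.38 TPM in library 1 and 9.92 TPM in library 2, cyclin E1 (Ccne1) had 21.16 and 8.32 TPM, and cyclin A2 (Ccna2) had 76.22 and 27.79 TPM. These 3 were past 1.5-fold, with ratios by scaled counts of 1.79 for E2f1, 1.65 for Ccne1 and 1.90 for Ccna2. Of 15 further nucleotide supply genes, 4 were higher and 4 lower, with the dUTPase gene Dut at 29.19 and 12.88 TPM past the limit. Of 8 chromatin assembly genes, 4 were higher and 1 lower. Slbp, which binds histone mRNA, had 51.39 and 26.74 TPM, and the histone chaperone Nasp had 1.79 and 2.39 TPM. Of 9 cell cycle inhibitors, 4 were higher and 0 lower, with Cdkn2c at 9.33 and 5.53 TPM past the limit. Of 7 genes listed for licensing factor degradation and its control, 0 were higher and 3 lower. The 15 markers of mitosis and G2 had 3 higher and 2 lower with a median of 0.01, and their centromere genes Cenpe and Cenpf were the ones past 1.5-fold, both lower in library 1.

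Markers of other cell types are given beside these values. Among all genes tested 50.7% passed the same test in either direction, and among detected genes 60.6%, so a count near that share of a list is not particular to it. Of 9 erythroid precursor genes, 3 were higher in library 1 (Klf1, Gata1 and Epor) and 6 lower, and the list summed to 720 TPM in library 1 and 1270 TPM in library 2, most of it from Alas2. The 4 haemoglobin genes were all lower in library 1. Of 7 granulocyte precursor genes, 4 were higher and 1 lower, with sums of 258 and 156 TPM. Of 6 germinal centre genes 4 were detected, 1 was higher and 1 lower, and the sums were 36.5 and 31.2 TPM. B cell markers summed to 2285 and 2024 TPM, with Cd79a the largest part at 1130.25 and 863.20 TPM. Of these 6 genes, 2 were higher and 4 lower. T cell markers summed to 359 and 352 TPM with 0 of 6 higher and 4 lower. Plasma cell markers summed to 613 and 537 TPM with 3 of 6 higher and 1 lower. The 10 acinar genes had 1 higher, Ctrb1, and 9 lower. The part of these cell types in the replication gene ratios was not tested.

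**Figure D5:**
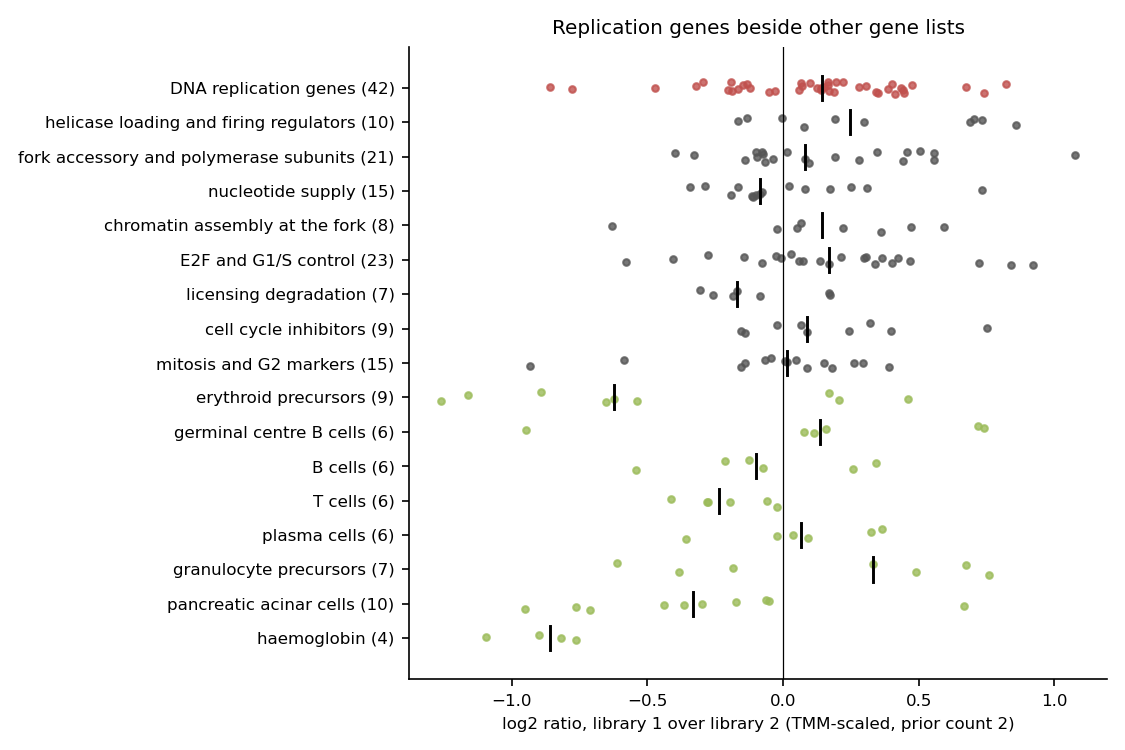
Log2 ratio of library 1 over library 2 for each gene (points) of the replication set (red), of 8 lists of related pathways (grey) and of 8 lists of cell type markers (green), with a black line at each median. Numbers in parentheses are genes with a ratio. The replication median lies at 0.15, the mitosis and G2 median at 0.01 and the erythroid precursor median at -0.62.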

How the data were processed

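Poly(A) RNA longer than 200 nucleotides was sequenced with paired reads of 76 nucleotides, per the labels. The gene and transcript tables use mm10 and GENCODE M4, per the deposited notes. No source at hand names the aligner, quantifier or strand setting. In the deposited tables, expected counts are the authors' estimated, unnormalized read numbers. The authors' deposited TPM and FPKM values are corrected for transcript length and library size. Deposited transcript tables give each transcript's percent of its gene's TPM. The authors' deposited score columns, the bounds of an interval of TPM whose level is not stated, were not used for any call. Symbols, positions and transcript types came from GENCODE M21 by unversioned identifier, which matched 42462 of 43346 genes (98.0%). A further 97 spike-ins (0.670% and 1.24% of counts) and 26248 entries without counts were left out.

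Ratios used expected counts, rounded to whole numbers for tests, and TMM scaling in edgeR 4.0.16 under R 4.3.3 (factors 1.01 and 0.990). Log2 ratios used a prior count of 2. Genes with 10 or more counts in total entered the exact binomial test. The library counts differed far beyond sampling noise (chi-square per degree of freedom 130 over 17547 genes), so they were not 1 library deposited in duplicate. Over 15860 genes, edgeR's common dispersion gave 0.186 for what edgeR terms the biological coefficient of variation. It was estimated between these libraries, whose spread may be technical, so it does not estimate the spread between animals. Counting intervals are 95% exact binomial intervals and cover counting error only. The test was checked on simulated counts whose only noise was counting error, so the check does not cover the wider spread between these libraries. Python 3.11.15, pandas 2.3.3, numpy 2.4.6, scipy 1.17.1, statsmodels 0.14.6 and matplotlib 3.10.9 did the rest. DESeq2 1.42.0 size factors were an alternative. Every gene of the set is named, and other genes were named if past 1.5-fold, or highest or lowest in their list. The rule for the 42 genes uses names and no measured value, but the genes and lists were chosen with earlier results of these data known. The promoter stretches of Mcm3, Mcm5 and Mcm6 were added after values were seen. The deposited junction and contig lists, which are on mm9, were not used, and no protein comparison was made.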

Additional observations from a re-analysis of the deposited data

How the results depend on the processing

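No paired analysis was possible because the samples form a single group. The median level of the 42 genes, 9.29 TPM as the mean of both libraries, became 13.7 TPM when TPM was rescaled without haemoglobin and acinar genes and 5.92 TPM with coding transcripts only, an alternative added after seeing the data. It ran from 8.46 to 10.1 TPM with either library left out, and the number detected from 39 to 40. Genes past the fold limit, 3 higher and 2 lower in library 1, became 5 higher by the ratio of deposited TPM, 1 lower with 50 or more counts required, 14 higher and 5 lower at 1.2-fold, and 0 in each direction at 2-fold. The counts beyond counting error ran from 18 to 21 higher and from 3 to 6 lower over the scalings and filters run. Orc2 passed with total counts, Pold1 with upper quartile scaling, and Orc4, as lower in library 1, under 3 alternatives. By deposited TPM the log2 ratio of Mcm3, which had passed the main test, reversed to -0.032. Of the genes that had not passed it, Orc1, Orc4, Orc6, Pold1 and Tyms also changed sign. Orc1 went from -0.17 to 0.29 and Orc4 from -0.29 to 0.35. With coding transcripts, log2 of Mcm7 over Mcm2 reversed to -0.12, Gins2 over Gins3 to -0.18 and Gins2 over Gins4 to -2.87, since this alternative leaves out the non-coding models. A further 16 ratios between genes moved with coding transcripts and 4 with posterior mean TPM, without reversing. The median log2 ratio stayed between 0.12 and 0.25 over its alternatives. The 16 promoters with a motif became 11 with only TTTGGCGC and TTTCCCGC, and 12 in the last 150 bases. Depth limits Rfc4, Rpa3, Gmnn and Gins1, which had under 100 counts in a library.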
